A study of Mus musculus with 12 samples.

Results

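The 77 genes described here are named as proteins of the mitochondrial ribosome, and with 2 exceptions they code for them. They are all symbols of the deposited count table that begin with Mrpl or Mrps followed by a digit, after 3 symbols ending in -ps and a number were left out of the 80 that matched, and they stand among 39017 genes listed. Of the 77, 48 carry an Mrpl symbol and 29 an Mrps symbol. Mrpl stands for the large and Mrps for the small subunit, but Mrps18a and Mrps30 belong to the large subunit despite their names. The exceptions are Mrpl48-ps, a processed pseudogene that the rule keeps, and Mrps36, a mitoribosomal protein by name only. RNA was sequenced from the CD45-negative cells of 12 mouse lung tumors in 4 groups of 3, all taken 26 weeks after tumor initiation on a C57BL6/J background. Every mouse carried K-rasLSL-G12D/WT, p53Fl/Fl and CCSP-rtTA, and every mouse was given 6000 units of the lentivirus Lenti.TRE-PPARaD13_PGK-Cre, which supplies Cre and a doxycycline-inducible, dominant-negative form of the nuclear receptor PPARα. The groups KP and KPG1 ate a regular diet, and KPG1 mice also carried Glut1Fl/Fl. The groups KP_PPARaDN and KPG1_PPARaDN matched them in genotype, and their food held doxycycline at 625 mg/kg over 15 days. The rtTA transactivator is driven by the CCSP promoter of airway club cells. The diet and the induction of the transgene change together in this design, so a difference between diets cannot be told apart into doxycycline itself and PPARaDN. The tumors came from 9 mice by their mouse numbers. KP replicates 1 and 2 came from the same mouse, as did KPG1 replicates 1 and 2 and KPG1_PPARaDN replicates 1 and 3, so these p-values measure the spread between tumors more than between animals. Sex was uneven over the groups, with 3 female tumors in KP, 1 in KP_PPARaDN, 0 in KPG1 and 2 in KPG1_PPARaDN.

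Mitochondrial ribosomes translate the few respiratory chain subunits that the mitochondrial genome still encodes, and all their proteins are made from nuclear genes and imported. Some have counterparts in bacteria and others are found only in mitochondria. Doxycycline is a tetracycline, which binds the small subunit of the bacterial ribosome and can also block translation in mitochondria. The comparison of the doxycycline groups with the regular-diet groups, within each genotype, asks whether the transcripts of the ribosome's own proteins differed under the diet.

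The stretches just before the start site of 6 members are shown first, since the members' promoters held a few known motifs more often than promoters at large. RefSeq promoter sequences (build GRCm38.p6, 250 bases before to 50 after a start) were found for 67 of the 77 members, as 73 promoters. Short motifs of 3 factors were searched on both strands, namely CCGGAAG of the ETS family, to which the mitochondrial regulator GABP belongs, GCATGCGC of NRF1 and AAGATGG of YY1. The ETS motif stood in 32.9% of the member promoters and in 8.86% of all 32851 promoters of the same length. The NRF1 motif stood in 11% of member promoters against 2.71% of all, and the YY1 motif in 17.8% against 6.34%. At least 1 of them was found in 36 of 73 member promoters (49.3%, against 16.6% of all). The E-box CACGTG, the site read by Myc, was at 9.59% against 7.15%. These are matches of letters and not measured binding. The sequences below are the longest run before the start that lies in no annotated exon, printed 5′ to 3′ on the gene's strand, with the motif matches in capitals. Mrps22 is among the members with the smallest p below, Mrpl43 is on chromosome 19, whose members moved together, Mrpl22 and Mrpl9 hold the NRF1 motif, Mrpl52 holds ETS and YY1 motifs, and Mrps12 holds none in this stretch.
Mrps22 (chr9:98601680-98601929, minus strand): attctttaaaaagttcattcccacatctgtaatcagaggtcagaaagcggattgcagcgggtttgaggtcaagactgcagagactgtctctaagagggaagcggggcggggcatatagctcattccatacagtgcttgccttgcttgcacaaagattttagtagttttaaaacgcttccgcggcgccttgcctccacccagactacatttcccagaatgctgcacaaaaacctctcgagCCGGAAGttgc
Mrpl43 (chr19:45006443-45006557, minus strand): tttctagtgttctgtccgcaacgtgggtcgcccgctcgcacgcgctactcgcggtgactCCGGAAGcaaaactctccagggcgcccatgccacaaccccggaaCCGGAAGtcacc
Mrpl22 (chr11:58171414-58171660, plus strand): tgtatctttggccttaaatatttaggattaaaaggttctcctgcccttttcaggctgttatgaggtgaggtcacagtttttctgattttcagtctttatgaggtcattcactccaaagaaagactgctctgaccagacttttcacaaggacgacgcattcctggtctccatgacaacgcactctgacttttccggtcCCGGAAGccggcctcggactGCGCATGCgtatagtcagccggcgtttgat
Mrpl9 (chr3:94443086-94443317, plus strand): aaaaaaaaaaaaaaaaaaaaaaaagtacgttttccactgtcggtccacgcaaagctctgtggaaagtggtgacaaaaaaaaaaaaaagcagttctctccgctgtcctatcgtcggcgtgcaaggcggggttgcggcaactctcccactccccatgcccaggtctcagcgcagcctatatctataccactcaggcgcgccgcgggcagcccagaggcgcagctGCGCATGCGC
Mrpl52 (chr14:54426659-54426908, plus strand): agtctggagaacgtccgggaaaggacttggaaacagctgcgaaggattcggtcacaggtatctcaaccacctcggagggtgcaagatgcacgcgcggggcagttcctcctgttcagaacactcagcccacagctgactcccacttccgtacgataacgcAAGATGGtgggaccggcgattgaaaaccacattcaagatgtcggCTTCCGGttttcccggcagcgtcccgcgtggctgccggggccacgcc
Mrps12 (chr7:28741822-28741991, minus strand): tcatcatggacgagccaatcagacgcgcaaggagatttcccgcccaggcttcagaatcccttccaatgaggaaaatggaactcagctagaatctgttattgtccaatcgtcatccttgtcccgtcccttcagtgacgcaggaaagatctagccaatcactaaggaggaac
In Mrps22 the ETS motif began 11 bases before the start site. Mrpl43 had 2 ETS matches, at 56 and 12 bases. In Mrpl9 the 2 NRF1 matches overlap in a palindrome, 28 and 26 bases before the start.

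Each tumor had between 25263794 and 32654223 counted reads, of which the members took 49646 to 71156, or 0.181 to 0.2393%. The transgene is a form of Ppara, and whether its reads were counted to Ppara is not given in the sources used here. Ppara was at 9.54 to 15.7 CPM (counts scaled to library size, here after TMM) in KP and at 2.71, 64.6 and 246.1 CPM in the tumors labelled KP_PPARaDN replicates 1, 2 and 3. In KPG1 it was at 7.24 to 15.3 CPM and in KPG1_PPARaDN at 8.90, 19.2 and 17.7 CPM. Raised Ppara was therefore plain only in 2 of the 6 doxycycline tumors, and the library labelled KP_PPARaDN replicate 1 had less than any regular-diet tumor. Glut1 (Slc2a1) was at 35.3 to 57.7 CPM in KP and 30.2 to 64.0 CPM in KPG1, ranges that overlap. It was at 108.1 to 152.5 CPM in KP_PPARaDN, above every KP tumor, and at 23.7 to 54.6 CPM in KPG1_PPARaDN, below every KP_PPARaDN tumor, and it did not pass the adjusted threshold between diets in KP (adjusted p 0.289 by edgeR) or in the difference between genotypes (adjusted p 0.351). Reads over the deleted exons could not be counted apart. Of the markers of other cells, the leukocyte sum ran from 180.3 to 4259 CPM, the endothelial sum from 74.7 to 458.4 CPM and the fibroblast and smooth muscle sum from 82.1 to 433.3 CPM, with overlapping ranges in the groups compared. The 6 leukocyte markers include Lyz2, and what each marker gave to the sum is not shown here. Cd3e, also among them, was below 1 CPM in every tumor. The 5 erythroid markers summed to 319.1 to 764.7 CPM in KP and 849.9 to 1320 CPM in KP_PPARaDN, without overlap, and to 629.2 to 961.6 and 731.1 to 1421 CPM in KPG1 and KPG1_PPARaDN. The erythroid gene Hba-a2, a near copy of Hba-a1 with which it can share reads, was below 1 CPM in every KPG1 tumor and was the 1 marker called (adjusted p 0.0105 in KPG1 by edgeR). The 6 epithelial markers, with the alveolar marker Sftpc among them, summed to 22935 to 32980 CPM in KPG1 and 13748 to 19195 CPM in KPG1_PPARaDN, without overlap, and to overlapping ranges in the KP groups. Gene by gene 3 of these 6 markers were above and 3 below 0 between diets in KPG1 (median log2 fold change -0.07), and their median deviation per tumor overlapped between the groups (-0.31 to 0.26 and -0.13 to 0.08). The part of these cell types in the results below was not tested. As RNA was pooled over the CD45-negative cells of a tumor, fewer cells of a type and less RNA per cell cannot be told apart. All 37 genes of the mitochondrial genome are listed at 0 in every tumor, so the transcripts that the mitochondrial ribosome translates could not be set beside its proteins.

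The members were expressed at moderate levels that differed from member to member, and their median range over the tumors was narrower than that of all genes tested. Of the 77, 76 passed the filter on low counts and were tested. The remaining one, Mrpl53, was listed at 0 reads in every tumor, and 88.0% of its exon bases lie on same-strand exons of a gene with the symbol Ccdc142 in the table, which had 198 to 680 reads per tumor. Another 4 members share same-strand exon bases with a neighbor, namely Mrps34 with Nme3 (37.0% of its exon bases), Mrps24 with Urgcp (15.4%), Mrps6 with Slc5a3 (10.4%) and Mrpl51 with Mir3098 (2.2%), so their counts are less certain. Per length, the median level of the members was 10.1 RPKM (CPM per 1000 bases of merged exons), from 2.43 for Mrps22 to 53.5 for Mrps21. Mrpl24 (40.6 RPKM), Mrpl28 (32.4 RPKM) and Mrpl14 (31.8 RPKM) followed Mrps21. Mrpl33 had no exon length and so no RPKM, and these medians leave it out. The median was 11.1 RPKM for the 30 large-subunit proteins shared with bacteria, Mrpl33 left out, and 14.6 RPKM for the 18 large-subunit proteins specific to mitochondria. It was 9.51 RPKM for the 15 shared and 7.72 RPKM for the 11 mitochondria-specific proteins of the small subunit. The highest of the 12 tumors exceeded the lowest by a median factor of 1.96 for the members, and of 2.87 for all genes tested. Mrps6 had the widest range of the 76, a factor of 6.82 (5.27 to 36.0 CPM), and Mrps11 the narrowest, a factor of 1.27.

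**Figure D1:**
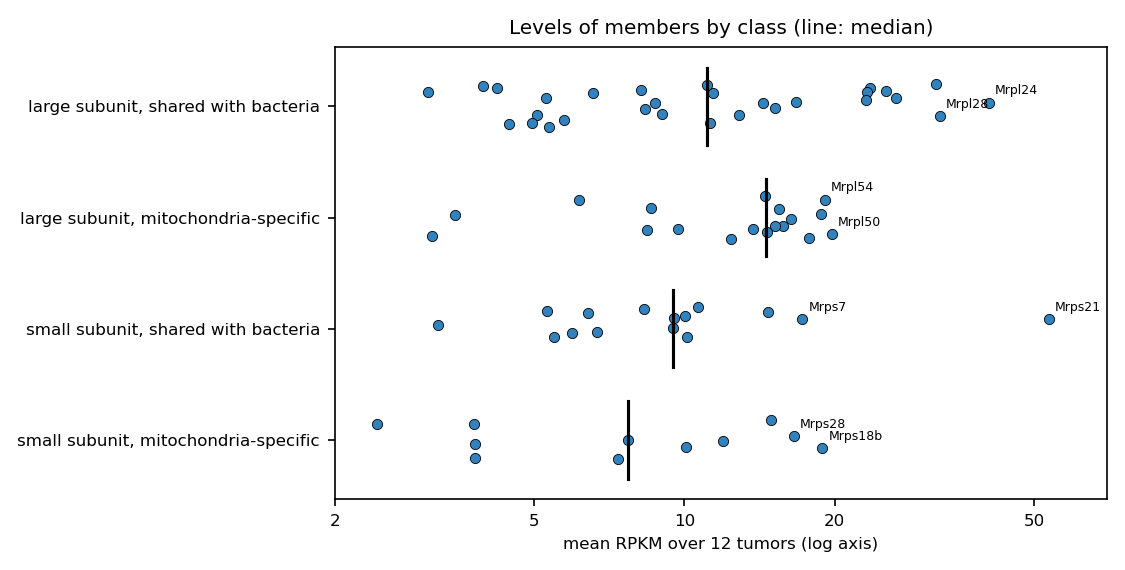
Mean RPKM over the 12 tumors on a log axis, 1 point per tested member of 4 classes by subunit and by kinship with bacterial ribosomal proteins, with the class median as a line. Mrpl33, which has no RPKM, and Mrps36 and Mrpl48-ps, which are in none of the classes, are not shown. The medians lie between 7.72 and 14.6 RPKM, and Mrps21 stands highest at 53.5 RPKM.

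In KP tumors no member differed between diets at an adjusted p under 0.05 in edgeR's quasi-likelihood test with Benjamini-Hochberg adjustment over 16527 genes, and the smallest adjusted p was 0.355. Across all genes the call was made for 0.00605%. At an unadjusted p under 0.05 there were 6 members with a higher level in KP_PPARaDN, beside 5.32% of all genes, and 1 with a lower level, beside 6.03%, or 7 of 76 in all, beside 11.4% of all genes. limma voom called 0 members, beside 1 of 16527 genes. DESeq2 called 1 member, beside 372 of 16527 genes, namely Mrpl40, a mitochondria-specific protein of the large subunit. Mrpl40 was at 19, 19.1 and 17.9 CPM in KP and 27.5, 26.2 and 24.6 CPM in KP_PPARaDN. All 3 doxycycline tumors stood above all 3 regular-diet tumors, with a log2 fold change of 0.48 ± 0.17 (SE) and an edgeR adjusted p of 0.355. Mrpl50, also mitochondria-specific, was at 26.8, 34.3 and 40.2 CPM in KP and 49.4, 45.5 and 48.0 CPM in KP_PPARaDN, a log2 fold change of 0.50 ± 0.20 (SE). Mrpl21, a large-subunit protein shared with bacteria, was at 10.9, 14.2 and 24.9 CPM in KP and 30.5, 26.5 and 27.0 CPM in KP_PPARaDN. Its log2 fold change was 0.75 ± 0.29 (SE), and the KP tumors with the 2 low values came from the same mouse. Without KP replicate 3 the log2 fold change was 1.16, and without KP replicate 1 it was 0.52. Mrpl14 had a log2 fold change of 0.49 ± 0.21 (SE) and Mrpl39 of 0.37 ± 0.16 (SE). Mrpl23, whose bacterial counterpart lies at the exit of the ribosomal tunnel, was on the low side, at 23.5, 32.8 and 28.8 CPM in KP and 18.8, 20.8 and 17.99 CPM in KP_PPARaDN. The groups did not overlap for Mrpl23, with a log2 fold change of -0.56 ± 0.24 (SE). The other members with a value below 0 and the smallest p were Mrps2, Mrpl4, Mrpl32 and Mrps24, with log2 fold changes from -0.34 to -0.16.

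Across the members in KP, 53 of 76 had a log2 fold change above 0, beside 49.2% of all genes, and the median was 0.09, beside -0.01 for all genes. The median was 0.10 for the 47 Mrpl members and 0.07 for the 29 Mrps members. The count and the median turn on single tumors. Without KP_PPARaDN replicate 2 the count was 40 of 76 and the median 0.02, without KP_PPARaDN replicate 3 they were 59 and 0.15, and without KP replicate 3 they were 55 and 0.16. Without KP_PPARaDN replicate 1, the doxycycline tumor with the low Ppara, they were 49 and 0.09. With sex as a covariate they were 60 and 0.17. The groups did not overlap for 11 members. There were 9 with every doxycycline tumor higher (Mrpl2, Mrpl3, Mrpl14, Mrpl18, Mrpl21, Mrpl28, Mrpl39, Mrpl40 and Mrpl50), beside 6.55% of all genes, and 2 with every doxycycline tumor lower (Mrpl23 and Mrpl48-ps), beside 6.69% of all genes. All 11 carry an Mrpl symbol, as do 47 of the 76 members tested, and Mrpl48-ps among them is the pseudogene. Mrpl39 and Mrpl40 lie on chromosome 16, Mrpl2, Mrpl14, Mrpl18 and Mrpl28 on chromosome 17, and Mrpl21 on chromosome 19. The other genes of these chromosomes also stood higher in KP_PPARaDN than in KP, a pattern taken up below.

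In KPG1 tumors no member passed the adjusted threshold either, with a smallest adjusted p of 0.420 in edgeR's test and 0.00605% of all genes called. At an unadjusted p under 0.05, 6 members had a higher level in KPG1_PPARaDN, beside 6.25% of all genes, and 1 a lower level, beside 4.5%, or 7 of 76 in all, beside 10.8% of all genes. Here limma voom and DESeq2 called 0 members. Mrpl4, whose bacterial counterpart lines the exit tunnel, had the smallest p. It was at 14.9, 17.2 and 18.5 CPM in KPG1 and 40.0, 24.4 and 25.3 CPM in KPG1_PPARaDN, a log2 fold change of 0.82 ± 0.24 (SE). All 3 doxycycline tumors were above all 3 controls, and replicate 1 stood well above the other two. Mrps24, Mrps26 and Mrps22 of the small subunit had log2 fold changes of 0.61 ± 0.25, 0.62 ± 0.27 and 0.60 ± 0.26 (SE), each without overlap. Mrps22, a mitochondria-specific protein with the lowest level per length of the members, was at 7.96, 9.84 and 6.35 CPM in KPG1 and 11.9, 12.9 and 11.8 CPM in KPG1_PPARaDN. Mrpl46, a mitochondria-specific protein of the large subunit, was the only member of the 7 on the low side. It was at 32.4, 27.6 and 27.0 CPM in KPG1 and 24.3, 16.4 and 18.4 CPM in KPG1_PPARaDN, a log2 fold change of -0.56 ± 0.20 (SE). KP and KP_PPARaDN tumors had 16.5 to 20.4 CPM of Mrpl46, so the KPG1 group on regular diet was the one that stood high. The next members with values below 0 were Mrps34, Mrpl39, Mrpl18 and Mrpl11, with log2 fold changes from -0.48 to -0.29.

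Across the members in KPG1, 41 of 76 had a log2 fold change above 0, beside 52.2% of all genes, with a median of 0.01, beside 0.02 for all genes. The sign of this median changed when KPG1 replicate 1 (-0.06), KPG1 replicate 2 (-0.01) or KPG1_PPARaDN replicate 1 (-0.04) was left out. It also changed with the tumors of each mouse summed (30 of 76 above 0, median -0.04) and with no filter on low counts (37 of 76, median -0.01). With sex as a covariate 33 members were above 0 and the median was -0.07. The groups did not overlap for 8 members on the high side (Mrpl3, Mrpl4, Mrpl30, Mrps2, Mrps22, Mrps23, Mrps24 and Mrps26), beside 11.2% of all genes, and for 7 on the low side (Mrpl11, Mrpl39, Mrpl46, Mrpl47, Mrps11, Mrps14 and Mrps34), beside 9.41% of all genes.

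**Figure D2:**
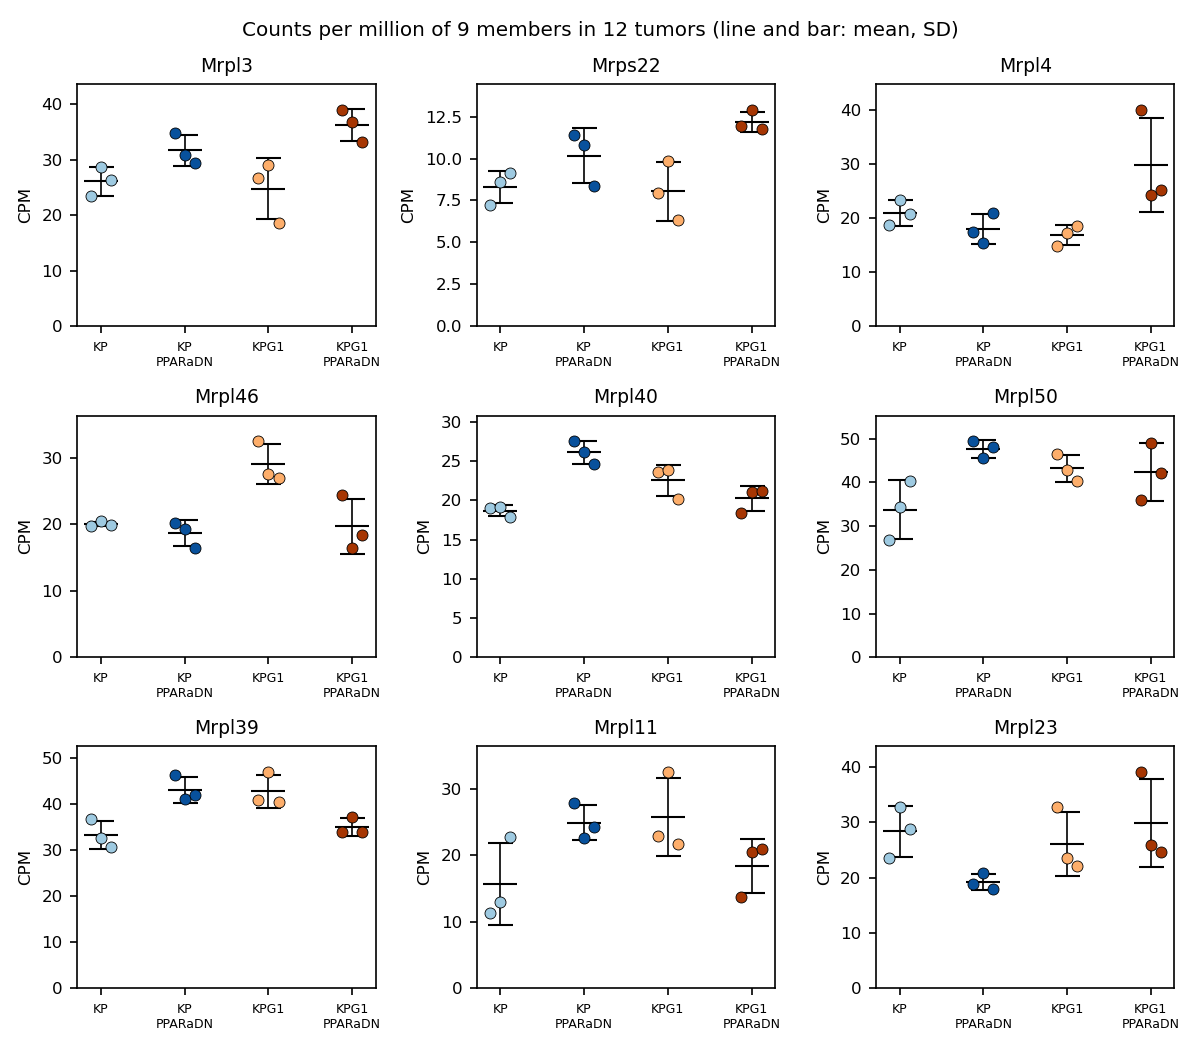
CPM of 9 members in each of the 12 tumors, by group, with the group mean and SD (n = 3). Mrpl40 and Mrpl50 lie higher in KP_PPARaDN than in KP, Mrpl3, Mrps22 and Mrpl4 lie higher in KPG1_PPARaDN than in KPG1, and Mrpl39 lies higher in KP_PPARaDN but lower in KPG1_PPARaDN.

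Averaged over the genotypes, 58 of 76 members had a log2 fold change above 0, beside 51.1% of all genes, with a median of 0.08, beside 0.01. No member passed the adjusted threshold (smallest adjusted p 0.381 in edgeR's test, 0.0182% of all genes called), and limma voom and DESeq2 called 0 members. At an unadjusted p under 0.05 there were 2 members on the high side, beside 5.14% of all genes, and 1 on the low side, beside 4.91%, or 3 of 76 in all, beside 10.1%. Mrpl3, a large-subunit protein shared with bacteria, was the only member whose doxycycline tumors were all higher than all regular-diet tumors in both genotypes, beside 0.635% of all genes. It was at 23.4, 28.6 and 26.4 CPM in KP and 34.9, 30.9 and 29.5 CPM in KP_PPARaDN. In KPG1 it was at 26.7, 29.1 and 18.6 CPM and in KPG1_PPARaDN at 38.9, 36.7 and 33.1 CPM. Its average log2 fold change was 0.41 ± 0.14 (SE), with an adjusted p of 0.381. Mrps22 had an average of 0.45 ± 0.18 (SE) and an adjusted p of 0.438, but its KP groups overlapped. Mrpl46 had the smallest p on the low side, at -0.33 ± 0.14 (SE). Mrpl4, Mrpl50 and Mrps25 stood at 0.23 to 0.30, and Mrpl48, Mrpl48-ps, Mrpl47 and Mrpl23 at -0.35 to -0.19. Without KP_PPARaDN replicate 2 the count above 0 was 49 of 76 and the median 0.03.

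The effect of the diet in KPG1 minus that in KP had a median of -0.08 over the members, beside 0.03 for all genes, and was above 0 for 34 of 76, beside 51.7% of all genes. No member passed the adjusted threshold for this difference (smallest adjusted p 0.351 in edgeR's test, 0.0% of all genes called), and limma voom and DESeq2 called 0 members. At an unadjusted p under 0.05 there were 3 members on the high side, beside 6.87% of all genes, and 7 on the low side, beside 4.94%, or 10 of 76 in all, beside 11.8%. The largest differences were a log2 value of 1.05 ± 0.34 (SE) for Mrpl4 and -1.15 ± 0.42 (SE) for Mrpl11. Mrps2, Mrpl23, Mrps24 and Mrps30 stood at 0.68 to 0.96, and Mrpl40, Mrpl21 and Mrpl49 at -1.02 to -0.64. Mrpl39 was the only member without overlap in opposite directions, beside 0.986% of all genes. It was at 36.7, 32.5 and 30.7 CPM in KP and 46.2, 41.0 and 41.8 CPM in KP_PPARaDN, and at 40.9, 46.8 and 40.4 CPM in KPG1 and 33.9, 37.2 and 33.9 CPM in KPG1_PPARaDN. The difference was -0.66 ± 0.23 (SE), with an adjusted p of 0.359. By sign alone, 24 members were higher in both genotypes (24.1% of all genes were), 6 were lower in both (22.7% of all genes were), 29 were higher in KP but lower in KPG1, and 17 were the opposite. The direction of the median turned without KP_PPARaDN replicate 2 (41 of 76 above 0, median 0.02), and with the filter of a mean of 20 TPM or more it was -0.0070 (28 of 56 above 0). With sex as a covariate the difference was above 0 for 21 members, with a median of -0.26.

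**Figure D3:**
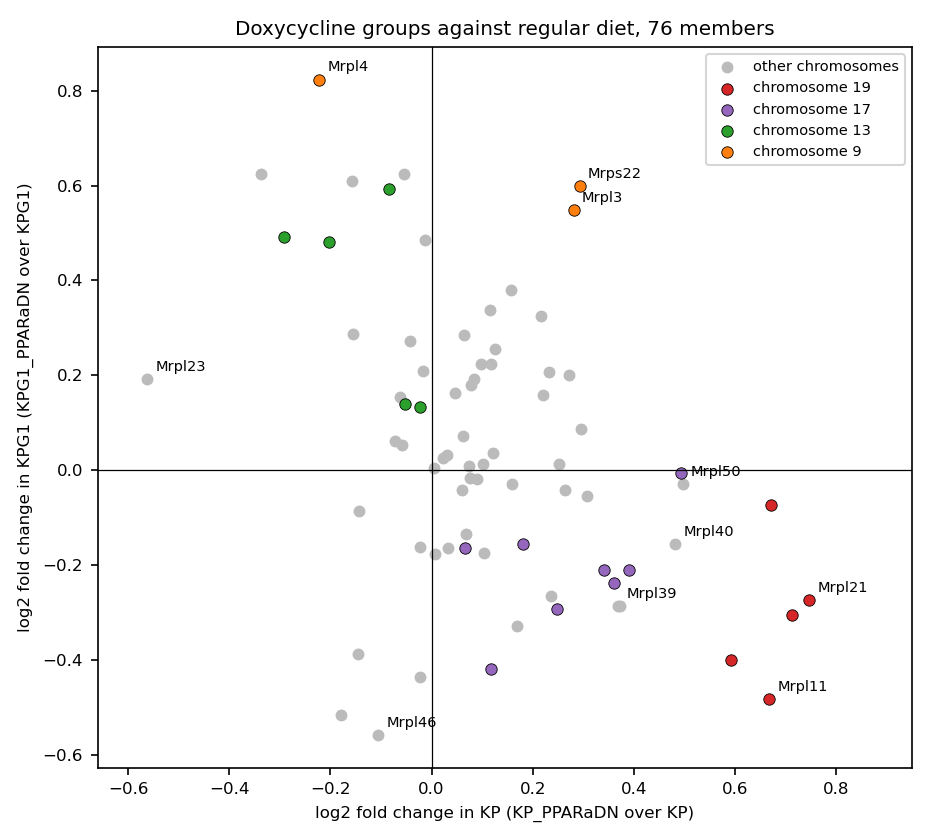
Log2 fold change between diets of the 76 tested members in KP (x axis) and in KPG1 (y axis), colored by chromosome. The 5 members on chromosome 19 and the 8 on chromosome 17 lie to the right of and below 0, and the 5 on chromosome 13 lie to the left of and above 0.

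Members chosen for their role, whatever their values, are given here by group. Some had like means in all 4 groups and others did not. Mrps12, the counterpart of the bacterial decoding protein S12, was at 9.84 CPM ± 3.21 (SD, n = 3) in KP and 9.87 ± 1.02 in KP_PPARaDN. It was at 11.2 ± 1.44 in KPG1 and 11.2 ± 1.56 in KPG1_PPARaDN, so its group means were almost equal between diets in both genotypes. Mrps7, of the head of the small subunit, was at 35.2 ± 2.41, 37.0 ± 2.54, 36.9 ± 10.4 and 33.6 ± 3.44 CPM in KP, KP_PPARaDN, KPG1 and KPG1_PPARaDN. Mrps5 was at 53.7 ± 11.2, 66.5 ± 41.4, 50.4 ± 6.996 and 48.5 ± 5.08 CPM in the same order, and the wide SD in KP_PPARaDN came with 1 tumor at 114.3 CPM. Mrpl12, the stalk protein that also binds the mitochondrial RNA polymerase, was at 34.7 ± 6.64, 40.4 ± 5.17, 32.7 ± 7.02 and 36.5 ± 3.18 CPM. Its stalk partner Mrpl10 was at 41.5 to 44.9 CPM in the 4 group means. Mrpl11, at the base of the stalk, was at 15.7 ± 6.18, 24.9 ± 2.64, 25.7 ± 5.88 and 18.4 ± 4.02 CPM, and lies on chromosome 19, which is taken up below. Mrpl44 was at 27.2 to 30.7 CPM, Mrpl37 at 40.4 to 46.7 CPM and Mrpl41 at 12.8 to 15.8 CPM in the group means. The 3 paralogs that descend from bacterial S18 differed in level per length, with 8.60 RPKM for Mrps18a, 18.9 RPKM for Mrps18b and 14.7 RPKM for Mrps18c over the 12 tumors. The tumors of the diet groups overlapped for all 3 paralogs in both genotypes. Mrps16 and Mrps27 had group means of 17.1 to 20.5 and 23.2 to 27.6 CPM. Other members of this set differed more between group means. Mrps2 was at 34.0 ± 8.71, 26.9 ± 9.39, 24.9 ± 3.40 and 38.3 ± 4.90 CPM in KP, KP_PPARaDN, KPG1 and KPG1_PPARaDN. In the same order Mrpl28 was at 40.9, 53.65, 45.3 and 39.1 CPM and Mrps34 at 20.5, 22.2, 23.1 and 17.3 CPM. Mrps6, with its wide range, was at 17.8, 17.7, 9.59 and 13.4 CPM. Mrpl3 and Mrps22 also belong to the set and are described above.

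The levels of the members went with the chromosome they lie on, a pattern chosen for description after the data were seen. For each tumor and chromosome, the level of the other genes was taken as the median of their log2 deviation from their own 12-tumor mean, over genes at 10 CPM or more and with the members left out. These levels ran from -0.69 to 0.74 across tumors and chromosomes. Over 75 members and 12 tumors, or 900 values, the members' own deviation correlated with the level of their chromosome at r = 0.681, and for 10120 other genes, which themselves define the level, at r = 0.352. The points share libraries and members share chromosomes, so no p is given. The members and the other genes were not matched for spread. The median factor between highest and lowest tumor was 1.96 for members and 2.87 for all genes tested. The higher r is therefore not shown to be particular to the members, and the values that follow have no counterpart over all genes here. Member by member the median r over the 12 tumors was 0.731 with the own chromosome and -0.0050 with the others, and 73 of 75 were above 0 and 63 above 0.5 with their own. Between pairs of members the median r of their deviations within groups was 0.702 for the 171 pairs on the same chromosome and 0.073 for pairs on different ones. With the chromosome level subtracted these became 0.336 and 0.336.

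Chromosome 19 showed this most clearly. Its 5 members Mrpl11, Mrpl16, Mrpl21, Mrpl43 and Mrpl49 had a median deviation of -0.90 in KP replicate 1 and -0.62 in KP replicate 2, which came from the same mouse, and of 0.19 in KP replicate 3. The other genes of chromosome 19 stood at -0.69, -0.42 and 0.19 in those tumors. In KPG1 replicate 2 the members were at 0.65 and the other genes at 0.66. Between diets all 5 members were above 0 in KP, with log2 fold changes of 0.59 to 0.75, and all 5 were below 0 in KPG1, at -0.48 to -0.07. The chromosome's other genes differed by 0.53 in KP and -0.35 in KPG1. The 8 members of chromosome 17 were all above 0 in KP (0.07 to 0.49) and all below 0 in KPG1 (-0.42 to -0.01), where the other genes differed by 0.11 and -0.26. The 5 members of chromosome 13 were the reverse, all below 0 in KP (-0.29 to -0.02) and all above 0 in KPG1 (0.13 to 0.59), beside -0.29 and 0.27 for the other genes. KPG1_PPARaDN replicate 1 was the high tumor for chromosome 13, at 0.85 for the members and 0.61 for the other genes. On chromosome 9 lie Mrpl3, Mrps22 and Mrpl4, the members with the smallest p in KPG1 or on average. Their median was 0.41, 0.33 and 0.29 in the 3 KPG1_PPARaDN tumors, where the other genes of the chromosome stood at 0.23, 0.20 and 0.22, and the chromosome's other genes differed between diets by 0.36 in KPG1. DNA copy number was not measured in these files.

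**Figure D4:**
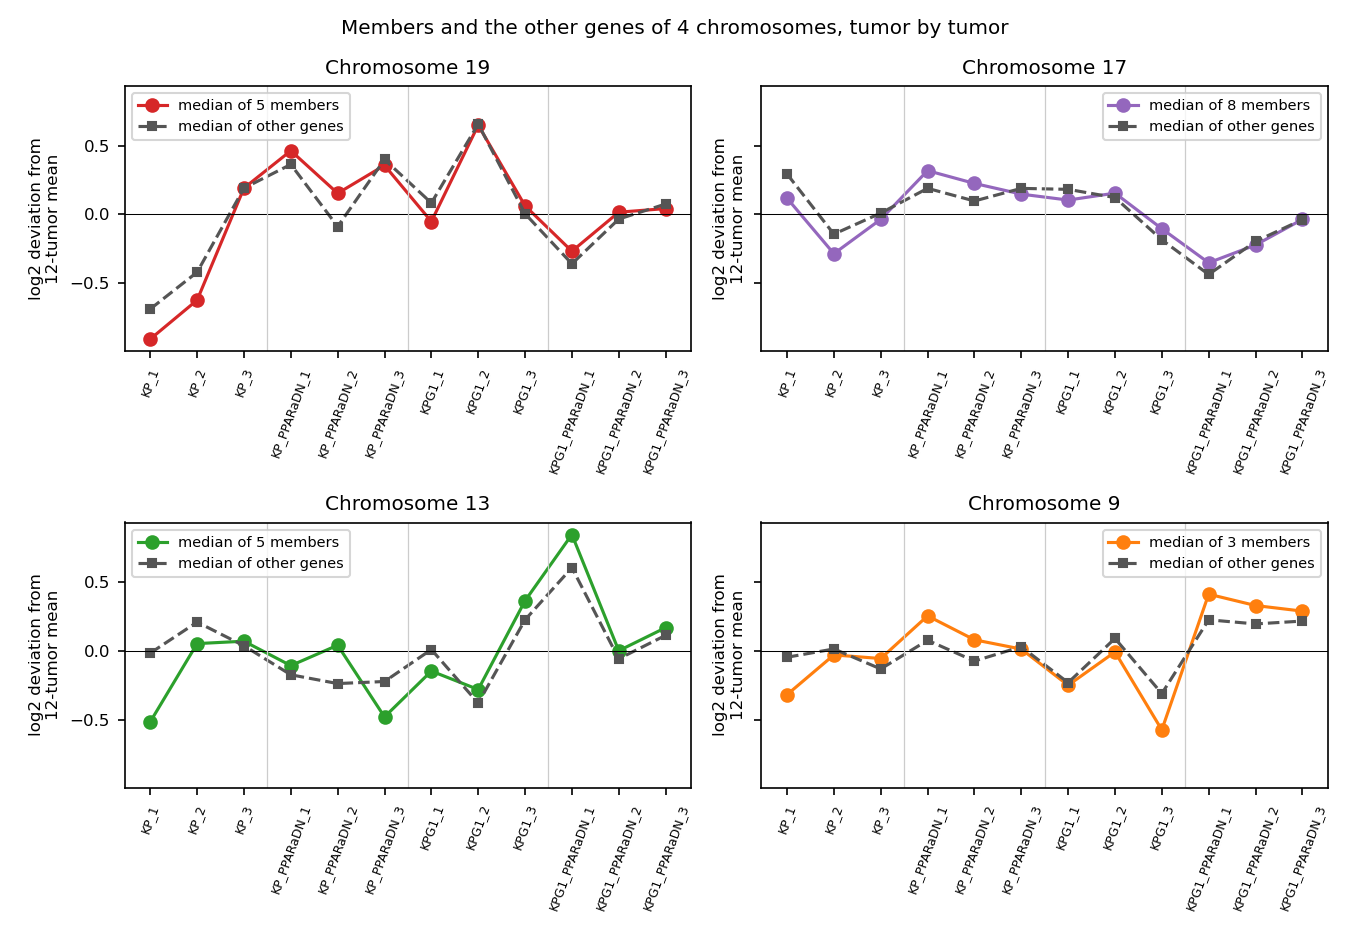
Median log2 deviation from the 12-tumor mean of the members (colored circles) and of the other genes (gray squares) on chromosomes 19, 17, 13 and 9, in each of the 12 tumors. The 2 lines run together in most tumors, as at -0.90 and -0.69 on chromosome 19 in KP replicate 1.

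When the chromosome level entered the edgeR fit as an offset, 0 members were called in any of the 4 comparisons, and 36 of the 40 leading values came nearer to 0. These 40 were picked for the smallest p without the offset, so this count does not stand for the members as a whole. Over all 76 members the median absolute log2 fold change went from 0.14 to 0.16 in KP and from 0.20 to 0.13 in KPG1. It went from 0.113 to 0.108 on average and from 0.24 to 0.16 for the difference between genotypes. Mrpl3 went from 0.41 to 0.21 ± 0.11 (SE) on average and Mrpl4 in KPG1 from 0.82 to 0.45 ± 0.22 (SE). Mrpl40 in KP went from 0.48 to 0.19 ± 0.13 (SE) and Mrpl39 in KP from 0.37 to 0.08 ± 0.12 (SE). Mrpl50 in KP kept 0.41 ± 0.16 (SE), Mrps26 in KPG1 kept 0.53 ± 0.19 (SE) and Mrpl46 in KPG1 kept -0.41 ± 0.18 (SE). Of the members with an unadjusted p under 0.05 without the offset, 2 of 7 stayed there in KP, 4 of 7 in KPG1 and 0 of 3 on average. Under the offset, 2 of the 76 members were higher and 1 lower at such a p in KP, beside 12.6% of all genes in either direction. In KPG1 4 were higher and 1 lower, beside 10.5%, and on average 1 was higher and 0 lower, beside 11.5%. The number of members above 0 was 59 of 76 in KP, 49 in KPG1 and 61 on average, beside 48.9%, 52.3% and 50.4% of all genes, with medians of 0.12, 0.10 and 0.09. With the offset 38 members were higher in both genotypes and 6 lower in both, against 24 and 6 without it. The share of all genes under the offset is not given for these 2 counts, so they have no background here.

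Many members share a start region with a neighbor. Of 74 protein-coding members tested, 32 (43.2%) had their 5′ end within 1000 bases of that of a gene on the opposite strand running the other way, beside 14.8% of 14186 protein-coding genes. Mrpl46 and Mrps11 form such a pair with each other, and their exons overlap on opposite strands. Mrpl43 faces Peo1, the mitochondrial DNA helicase Twinkle, and Mrps12 faces Sars2, the mitochondrial seryl-tRNA ligase. Mrpl36 faces Ndufs6 and Mrpl47 faces Ndufb5, both complex I subunits. Mrpl18 faces Tcp1, Mrpl32 faces Psma2 and Mrpl49 faces Fau. Such neighbors lie on the same chromosome. The study's methods name a stranded library kit, but the strand setting of the counting is not given. Where exons of a pair overlap, whether their reads were counted apart is therefore not known.

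The other genes of mitochondrial translation, in lists chosen with earlier results of these data known, also had no member past the adjusted threshold in either genotype or on average. Averaged over genotypes, 51.1% of all genes were above 0. On this average all 7 mitoribosomal proteins with other names were above 0 (median 0.15), with Aurkaip1 at 0.26 ± 0.13 (SE). Of 21 assembly and rRNA modification factors 14 were above 0 (median 0.05), from Rpusd4 at 0.39 ± 0.16 (SE) to Ngrn at -0.34 ± 0.16 (SE). Of 16 translation factors 11 were above 0 (median 0.10), with Tufm, the mitochondrial elongation factor Tu, at 0.29 ± 0.18 (SE). Of 19 mitochondrial tRNA ligases 10 were above 0 (median 0.01), and of 14 regulators of mitochondrial biogenesis 6 (median -0.01), with Polg, the mitochondrial DNA polymerase, at -0.40 ± 0.14 (SE) and Ppargc1a at -0.42 ± 0.45 (SE). The mitochondrial stress list, genes that can answer to blocked mitochondrial translation, had 20 of 25 above 0 on average (median 0.16). In KP it had 21 of 25 (median 0.27), beside 49.2% of all genes. In KPG1 it had 11 of 25 (median -0.04), beside 52.2%. Its median deviation per tumor overlapped between diets, at -0.25 to 0.13 in KP and -0.01 to 0.38 in KP_PPARaDN. In KPG1 and KPG1_PPARaDN it was -0.27 to 0.08 and -0.09 to 0.11. Whether blocked translation had a part in these values was not tested. Mthfd2 and Phgdh, of the serine and folate route, stood at 0.79 ± 0.31 and 0.65 ± 0.26 (SE) on average, with adjusted p of 0.431 and 0.431 by edgeR. On the low side of this list Cth stood at -0.66 ± 0.30 (SE), with an adjusted p of 0.494 by edgeR, and Sesn2 at -0.25 ± 0.19 (SE).

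For comparison, the nuclear-encoded respiratory chain had 53 of 76 genes above 0 on average (median 0.09), 47 in KP (median 0.14) and 38 in KPG1 (median -0.00068). Cox5a, a complex IV subunit, was at 0.51 ± 0.12 (SE) with an adjusted p of 0.231 in edgeR's test. Cytosolic ribosomal proteins had 51 of 79 above 0 on average (median 0.07), 42 in KP (median 0.01) and 55 in KPG1 (median 0.15), and proliferation genes 6 of 10 (median 0.12). Tumor by tumor, the members' median deviation was -0.12 to 0.02 in KP, -0.13 to 0.15 in KP_PPARaDN, -0.05 to 0.07 in KPG1 and -0.01 to 0.09 in KPG1_PPARaDN. These ranges overlap in both genotypes, and they are narrower in every group than those of the cytosolic ribosomal proteins. The respiratory chain's range was narrower than the members' in KP_PPARaDN (-0.03 to 0.10) and wider in the other groups.

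**Figure D5:**
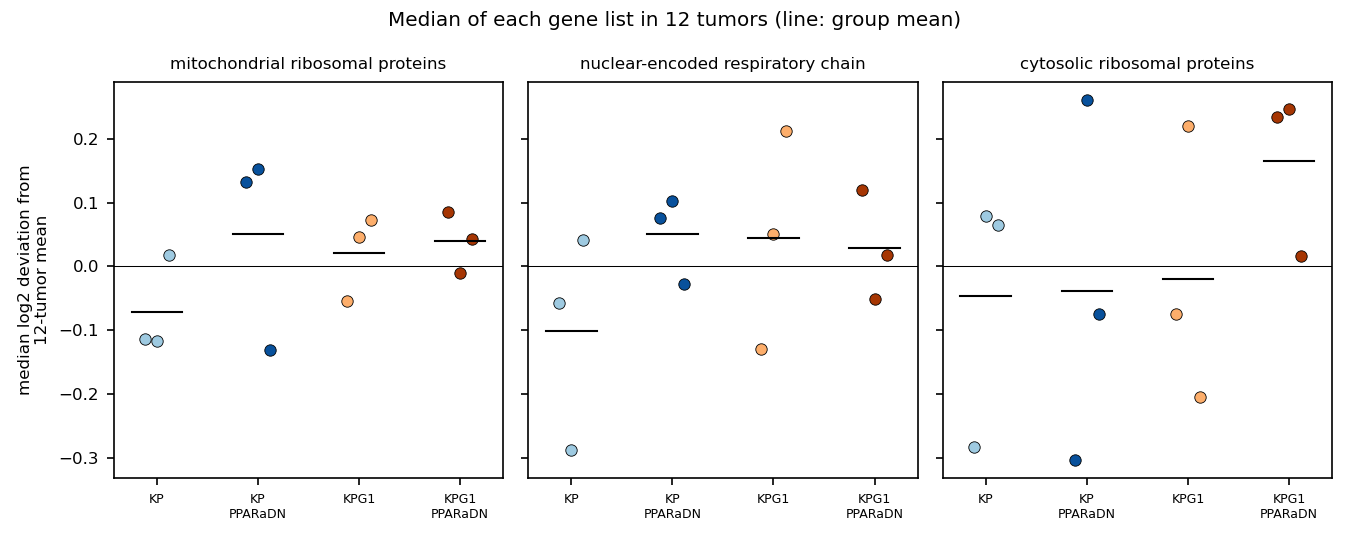
Median log2 deviation from the 12-tumor mean of the members, the nuclear-encoded respiratory chain and the cytosolic ribosomal proteins, 1 point per tumor with the group mean as a line. The members lie between -0.13 and 0.15 in all 12 tumors, and the diet groups overlap in both genotypes.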

How the data were processed

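The authors sequenced RNA from CD45-negative cells of 12 tumors and deposited whole-number counts per gene, 1 file per tumor and a combined table, which held equal values. A further file holds log2 CPM that the authors made with TMM and voom, and it was not used for tests. The submitters' processing notes name bcl2fastq, cutadapt, HISAT2, featureCounts and edgeR, and the study's methods name mm10. The counting annotation, its strand setting and the handling of reads in overlapping genes are not given in the sources used here, which bears on the members with shared exons. Groups came from the labels. Members and lists were chosen with earlier results of these data known.

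Counts were tested with edgeR 4.0.16 in R 4.3.3 (TMM factors from 0.89 to 1.066, filterByExpr by group, quasi-likelihood test, no covariate) with all 12 tumors in 1 fit, 8 residual degrees of freedom and a biological coefficient of variation of 0.44. P-values were adjusted by Benjamini-Hochberg over the 16527 genes tested, with a threshold of 0.05. SE was derived from each log2 fold change and its F statistic. CPM used TMM library sizes, and RPKM used merged exon lengths of GENCODE M21 (mm10), which held 96.6% of gene identifiers and 99.75% of counts, 76 of 77 members among them. Of the 39017 genes, 13548 had no count. No pair of tumors in a group had counts equal within sampling noise, so none was taken as a library deposited again. This does not make tumors of a mouse independent, and an alternative summed them. On simulated counts for the KP comparison (16527 genes), 0% of 1.5-fold, 4% of 2-fold, 56% of 4-fold and 62% of 8-fold changes were recovered. The changes were put into genes drawn at random from all genes tested, not into the members.

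Members named in the text are a set chosen by role, the 5 higher and 5 lower with the smallest p in each comparison, and any past the adjusted threshold, and, of other lists, those with the smallest p on average. A few more are named where a count is spelled out, after their values were seen. Alternatives were limma voom (limma 3.58.1), DESeq2 1.42.0, other normalizations and filters, sex or replicate number in the fit, the compared groups alone, tumors of a mouse summed, and each tumor left out. The chromosome level as an offset was added after the data were seen. Same-numbered tumors of the compared groups did not deviate together (r from -0.27 to 0.14 over 6 pairs), so replicate numbers were not used as pairs. Promoter sequences are RefSeq's, and gene pairs used annotated protein-coding starts.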

Additional observations from a re-analysis of the deposited data

How the results depend on the processing

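No member passed the adjusted threshold under any alternative in any of the 4 comparisons, except in KP with DESeq2, which called 1 member, Mrpl40 (log2 fold change 0.50, adjusted p 0.0456). In that setting 372 of all 16527 genes were called. Over the alternatives other than leaving out a tumor, the number of members above 0 ran from 37 to 60 in KP, 30 to 49 in KPG1 and 45 to 61 on average, the lowest in KP and on average with the filter of a mean of 20 TPM or more, which keeps 56 members, and the lowest in KPG1 with the tumors of each mouse summed (30, median -0.04). With sex as a covariate the difference between genotypes was above 0 for 21 members with a median of -0.26, beyond the range of the other settings, and the cause was not tested. Of 40 fold changes under 768 combinations of member and setting, 2 changed sign, both for Mrpl32 in KP, with sex as a covariate (0.13) and with the chromosome offset (0.0046). Leaving out each tumor in turn gave 40 to 59 members above 0 and medians of 0.02 to 0.16 in KP, 32 to 41 and -0.06 to 0.05 in KPG1, 49 to 60 and 0.03 to 0.12 on average, and 27 to 41 and -0.14 to 0.02 for the difference, and it called 0 members. Replicate numbers did not pair the tumors, and with the replicate block 0 members were called, 54 were above 0 in KP (median 0.10) and 40 in KPG1 (median 0.03). On simulated counts few changes of 2-fold were recovered for single genes at this depth and spread. Those genes were drawn from all genes tested, and the median SE in KP was 0.24 for the members beside 0.35 for all genes. The rates are therefore not those of the members. The lack of calls does not show that the members were at equal levels.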
